A study of Drosophila melanogaster with 5 samples.

Results

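The chemoreceptor genes of Drosophila, taken as all protein-coding genes of the BDGP6 annotation whose symbol is Gr, Or or Ir followed directly by a digit, were examined for accessible chromatin at their start sites in adult midgut cells. There were 179 such genes (60 Gr, 59 Or and 60 Ir) among 13945 protein-coding genes on the chromosome arms. For each gene, a peak was counted when it came within 1 kb of any annotated start site. A peak that lay within 1 kb of a start site of a protein-coding gene outside the 3 families as well is called shared, and any other is called an own peak. Non-coding genes were not considered, neither here nor where a summit or window is called intergenic.

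The ATAC-seq peak lists of 5 populations of FACS-sorted intestinal cells were compared, with 1 library each. ATAC-seq marks accessible chromatin by the insertion of adapters by the Tn5 transposase, and a peak is a stretch that holds more fragments than the background of its library. The normal cell types were esg+ progenitor cells (esg-Gal4ts, UAS-GFP), enteroendocrine cells (EEs; prosV1-Gal4ts, UAS-GFP) and enterocytes (ECs; Myo1A-Gal4ts, UAS-GFP). Pros-depleted EEs carried prosV1-Gal4ts, UAS-GFP and UAS-pros-RNAi, and are labelled as EEs transformed to a progenitor-like state. Ttk-depleted ECs carried Myo1A-Gal4ts, UAS-GFP, UAS-ttk-RNAi and pros-mCherry, were sorted as weakly GFP-positive, mCherry-positive cells and are labelled as ECs transformed to an EE-like state. All groups share the Gal4ts and UAS-GFP system. Crosses were kept at 18 °C, adults aged 5 to 7 days were moved to 29 °C, which releases Gal4, and about 40000 cells from 100 to 150 guts were sorted for each sample. By the methods, the sorted flies were female and were held at 29 °C over 7 days. Each library therefore pools many animals. Per the study, Myo1A-Gal4 is also active in some enteroblasts, the precursors of ECs. The peak names carry the mark 5w in the progenitor list, rep1 in the EC list and rep2 in the lists of EEs and Pros-depleted EEs, which no source used here explains, and any other replicates were not analysed here.

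Gr proteins are the gustatory receptors for sugars, bitter compounds and carbon dioxide. Or proteins are the odorant receptors, which work with the co-receptor Orco, and Ir proteins are ionotropic receptors related to glutamate receptors that detect acids, amines, salts, temperature and humidity. All 3 families are best known from sensory neurons of the antenna, palps, labellum, pharynx and legs, while EEs are the hormone-secreting cells of the gut epithelium, and some Gr genes are known to be expressed in them.

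Most of the 179 genes had no peak at their start sites. In EEs, 21 had a peak, or 11.7% (95% Wilson interval 7.80 to 17.3), against 49.4% of all protein-coding genes. ECs had 25 (14%, 9.64 to 19.8), against 45.9% of all genes, and esg+ progenitor cells had 14 (7.82%, 4.72 to 12.7), against 51.3%. Of the depleted populations, Pros-depleted EEs had 16 (8.94%, 5.58 to 14; all genes 46.6%) and Ttk-depleted ECs had 5 (2.79%, 1.20 to 6.37; all genes 13.8%). When the -log10 q, the strength of evidence for a peak, had to reach 10, the order of EEs and ECs turned, to 14 members in EEs (7.82%) and 8 in ECs (4.47%). The share of all genes fell at this threshold too, to 37.8% in EEs and 26.1% in ECs. With 1 library for each population no test between populations was possible, and these intervals cover counting error only, not the variation between replicates.

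Of the 8 own peaks in EEs, 4 are shown with an upstream peak at the Gr64 cluster, as bases around the summit, the position of the highest signal, because the EE results below rest in part on them. The own peaks of Ir25a, Gr43a, Gr2a and Or42b are not shown. Each runs 5′ to 3′ on the strand of the gene, in build BDGP6, and stops at the edge of the peak or at any annotated UTR. Capitals mark matches on either strand to GATAAG, the letters that factors of the GATA family bind, and to CAGCTG and CAGGTG, which are E-boxes. The line for Ir21a (chr2L:25156-25286) holds the summits of both the progenitor and the EE peak, that for Gr28b (chr2L:7461876-7462026) has its summit in a coding exon, that for Gr64a (chr3L:4026148-4026298) is intergenic, that for Or10a, which is also the peak of Gr10a (chrX:11418085-11418235), is intergenic, and that for Ir85a (chr3R:8794442-8794560) lies in an intron of the genes Pif1A and Pif1B.
Ir21a: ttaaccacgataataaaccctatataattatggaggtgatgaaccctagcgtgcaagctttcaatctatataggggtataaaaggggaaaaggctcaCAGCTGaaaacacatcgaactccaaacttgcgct
Gr28b: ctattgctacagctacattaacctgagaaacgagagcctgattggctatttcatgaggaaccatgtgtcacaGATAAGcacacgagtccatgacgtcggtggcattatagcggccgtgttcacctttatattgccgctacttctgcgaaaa
Gr64a: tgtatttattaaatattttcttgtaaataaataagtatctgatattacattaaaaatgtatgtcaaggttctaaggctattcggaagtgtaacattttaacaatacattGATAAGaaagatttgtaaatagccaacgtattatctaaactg
Or10a: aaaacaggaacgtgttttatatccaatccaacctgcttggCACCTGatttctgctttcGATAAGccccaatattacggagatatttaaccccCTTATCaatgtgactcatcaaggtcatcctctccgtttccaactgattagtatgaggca
Ir85a: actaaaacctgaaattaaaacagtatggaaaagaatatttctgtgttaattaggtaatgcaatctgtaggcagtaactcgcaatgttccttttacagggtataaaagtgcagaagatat
The windows of Gr28b and Gr64a each held 1 GATAAG, that of Or10a held 2 GATAAG and 1 CAGGTG, that of Ir21a held 1 CAGCTG, and that of Ir85a held none of these letters. Among the 5785 EE peaks within 1 kb of a start site, 13.9% held GATAAG, 11.7% CAGCTG and 6.85% CAGGTG in the 151 bases around the summit (the printed windows have up to 151), so single matches are common and are given as a description.

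Own peaks in ECs mostly had their summit in coding sequence, and the bases around the summits of the EC peaks of Gr21a (chr2L:781364-781514) and Or22c (chr2L:2054743-2054893) are shown as examples. Both summits lie in coding exons of these genes, and the bases are on their strand.
Gr21a: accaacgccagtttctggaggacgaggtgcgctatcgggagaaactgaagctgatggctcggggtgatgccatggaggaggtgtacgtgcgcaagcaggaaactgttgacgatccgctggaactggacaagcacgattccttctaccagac
Or22c: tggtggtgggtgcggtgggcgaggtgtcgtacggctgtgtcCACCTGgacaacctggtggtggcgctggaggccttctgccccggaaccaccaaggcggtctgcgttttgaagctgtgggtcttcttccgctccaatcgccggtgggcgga
The window of Gr21a is 56.3% G and C and that of Or22c is 65.6%, the highest of the 9 EC windows read in the same way, which ranged from 44.3% (Gr8a) to 65.6%. The printed windows from EEs ranged from 23.8% (Gr64a) to 46.4% (Gr28b), so the ranges overlapped. The CAGGTG match of Or22c lies on the opposite strand.

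A group of 10 genes had a peak in EEs and in neither ECs nor progenitor cells: the Gr genes Gr10a, Gr28b, Gr39b, Gr43a and Gr64a, the Or genes Or10a, Or42b and Or49b, and the Ir genes Ir25a and Ir85a. These 10 make up 5.59% of the members (3.06 to 9.98), close to the 4.34% of all protein-coding genes with a peak in EEs alone. ECs alone had a peak at 14 members (7.82%, 4.72 to 12.7; all genes 4.50%), and progenitor cells alone at 0 of 179 (up to 2.10%; all genes 4.14%). At a -log10 q of at least 10, the numbers were 4 in EEs alone and 1 in ECs alone. The 4 (Gr39b, Gr64a, Ir25a and Or49b) were among the 10, whereas none of the 14 reached this threshold. The 1 in ECs alone was Gr94a, whose progenitor peak, at a -log10 q of 7.97, no longer counted. A peak in EEs and ECs without one in progenitor cells was found at 0 of 179 members (up to 2.10%). Among all genes this share was 0.975%, within that interval. A peak in all 3 normal cell types was found at 8 members (4.47%, all genes 37.3%). In progenitor cells and EEs without ECs the number was 3 (1.68%, all genes 6.72%). In progenitor cells and ECs without EEs it was also 3 (1.68%, all genes 3.06%). In all, 38 members (21.2%, 15.9 to 27.8) had a peak in a normal cell type, against 61.1% of all genes. No peak in any of the 5 libraries was found at 139 members, and at 5293 of all 13945 genes.

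**Figure D1:**
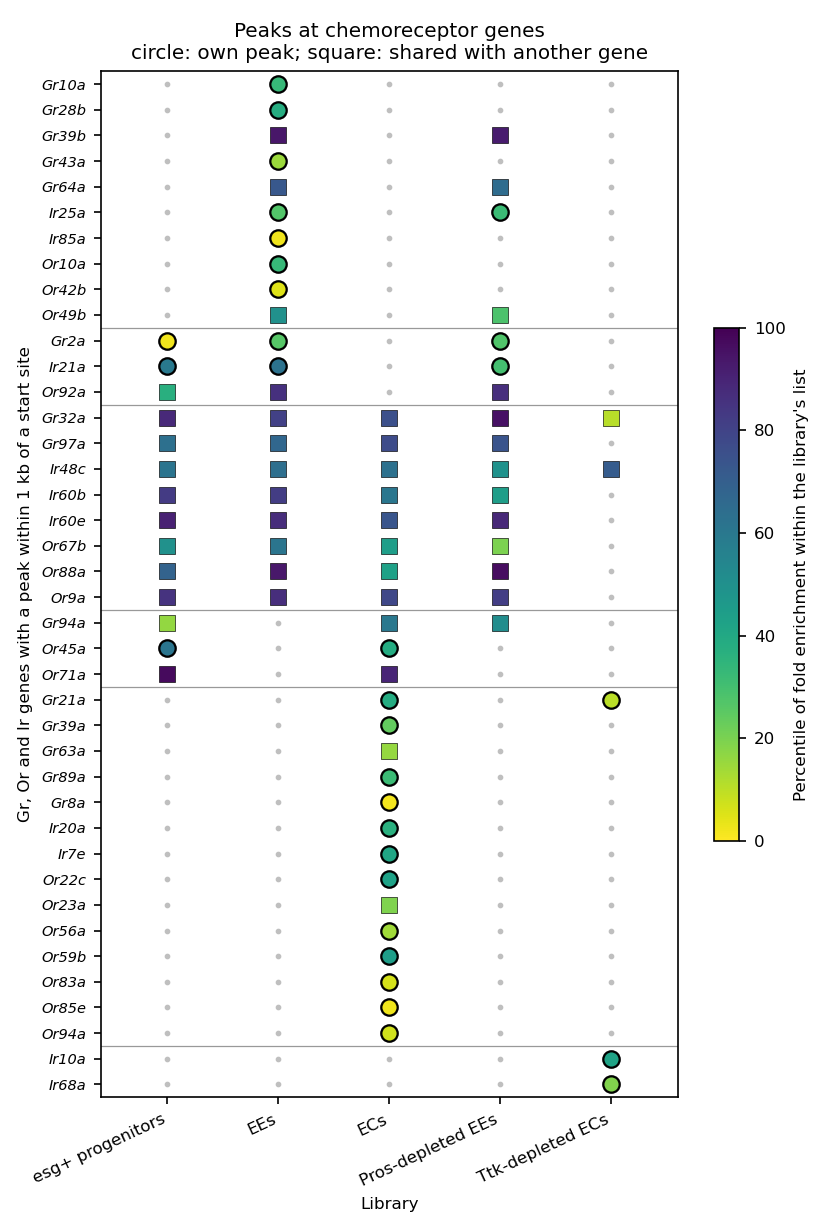
Peaks within 1 kb of a start site at the 40 members that have one in any library (rows) in each of the 5 libraries (columns). Colour gives the percentile of the fold enrichment of the strongest peak within that library's own list, circles mark genes with an own peak there, squares genes with a shared peak only, and grey dots no peak. The 8 genes with a peak in all 3 normal cell types have squares only, and the 14 genes with a peak in ECs alone lie low on the colour scale.

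Among the taste receptors, peaks at sugar receptor genes were found in EEs alone of the normal cell types. Of 9 sugar receptor genes, Gr43a and Gr64a had a peak in EEs, and 0 of 9 had one in ECs or progenitor cells. The shares of all genes were 49.4% in EEs, 45.9% in ECs and 51.3% in progenitor cells, so 2 of 9 lies below the EE share. A peak in EEs alone was found at 4.34% of all genes. Of the 2 peaks, that of Gr43a is an own peak and that of Gr64a is shared. Gr43a, a fructose receptor, had a weak EE peak that covered its start site, with a fold enrichment of 2.47 over the library background, at percentile 14.9 of the EE list. Its nearest peaks in the other normal cell types lay 2398 bp away in progenitor cells and 2168 bp away in ECs. Gr64a, a sugar receptor that heads a tandem cluster of 6 related genes, had a stronger EE peak of fold 5.30 (percentile 73.0) with its summit 546 bp upstream of the start site. The same peak lay within 1 kb of a start site of CG11594, so it cannot be assigned to either gene from its position. The nearest peaks to Gr64a were 4921 bp away in progenitor cells and 1772 bp away in ECs. The other sugar receptors, Gr5a and Gr61a among them, had their nearest EE peak beyond the window, at 1904 bp and 1566 bp. Peaks lay at like distances from these genes in progenitor cells (1805 and 1371 bp) and ECs (1833 and 1588 bp).

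Of the 10 members with a peak in EEs alone, Gr28b lay furthest from a peak in progenitor cells and in ECs. Gr28b, which encodes several receptor isoforms from 5 annotated start sites and is known from warmth and light sensing as well as taste, had an own EE peak of fold 3.30 (percentile 37.5) that covered a start site, with the summit 296 bp downstream of it. In progenitor cells the nearest peak lay 22568 bp away and in ECs 22731 bp away. Such distances were also seen at members with a peak in ECs alone. Ir20a, for example, had its nearest peak 39997 bp away in progenitor cells and 40017 bp away in EEs. Gr28a next to Gr28b had no peak within 1 kb in any library, its nearest EE peak lying 1923 bp away.

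Of the bitter and carbon dioxide receptors, sets of 5 and 2 genes, more had a peak in ECs than in EEs, and the difference was not tested. Of the 5 broadly used bitter receptors, 1 had a peak in EEs (all genes 49.4%), 1 in progenitor cells (51.3%) and 3 in ECs (45.9%). Gr32a, a bitter and pheromone receptor, accounted for all libraries through a peak shared with Idua, a lysosomal enzyme gene, at folds of 5.93 in EEs and 8.40 after their depletion of Pros, 4.03 in ECs and 4.0 after their depletion of Ttk, and 9.75 in progenitor cells. Its summit lay 470 to 935 bp upstream of the Gr32a start site. Gr39a and Gr89a had own peaks in ECs alone, at folds of 2.14 and 2.26, and both summits lay in the coding exons of these genes. Gr66a and Gr33a, the other bitter receptors, had no peak within 1 kb in any library. Gr21a and Gr63a, which together form the carbon dioxide receptor, had peaks in ECs and in neither of the other normal cell types. Among all genes, 4.50% had a peak in ECs alone. The own EC peak of Gr21a had a fold of 2.11 and the EC peak of Gr63a, shared with Lamtor4, a fold of 2.03, at percentiles 22.0 and 15.8.

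Of the other Gr genes with a peak in EEs alone, Gr39b had the strongest member peak of the EE list, at fold 8.06 (percentile 94.0). It lay 923 bp from the Gr39b start site and was shared with CG8665. Gr10a and Or10a use the same annotated start site and therefore the same own peak, of fold 3.11 (percentile 33.2), with the summit 738 bp upstream, and they are not independent. Or10a is an odorant receptor of the antenna with which Gr10a is expressed. Gr2a had own peaks in both EEs (fold 2.84, percentile 26.5) and progenitor cells (fold 2.01, percentile 2.24), but at different places. The EE summit lay 168 bp downstream of the start site in an intron of Gr2a and the progenitor summit 713 bp downstream in a coding exon, and both positions also fall in the 3′ UTR of futsch, a microtubule-binding protein gene of neurons.

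Among the Ir genes, the co-receptor Ir25a and the cool receptor Ir21a had own peaks over their start sites. Ir25a, which forms channels with many other Ir proteins, had an EE peak of fold 2.87 (percentile 27.0) that covered a start site. Its summit was 218 bp upstream of that site, in the 3′ UTR of the neighbouring gene tank. A peak of fold 3.19 was also present in Pros-depleted EEs, with the summit 232 bp upstream, while the nearest peaks lay 2360 bp away in progenitor cells and 2472 bp away in ECs. Of the 3 Ir co-receptors, Ir8a and Ir76b had no peak within 1 kb in any library. Ir21a, a receptor of cool temperatures that is known to act with Ir25a and Ir93a, had the highest fold of any own peak in EEs. Its peak covered the start site at fold 5.80 in progenitor cells (percentile 59.5), 4.58 in EEs (percentile 62.4) and 3.09 in Pros-depleted EEs (percentile 29.8). In ECs the nearest peak lay 3073 bp away. Of the 4 temperature and humidity receptors, Ir40a and Ir93a had no peak in any library and Ir68a had a peak in Ttk-depleted ECs alone. The 10 acid and amine receptors of the antenna had 0 peaks in each of the 5 libraries. Ir85a had the weakest member peak of the EE list, at fold 1.97 (percentile 2.10).

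Of the Or genes with a peak in EEs alone, Or42b, a receptor for fruit esters, had a weak own peak in its coding exon at fold 2.11 (percentile 4.79). Or49b had a peak of fold 3.86 over its start site, shared with the cytochrome P450 gene Cyp9h1. Or92a, a receptor for the fermentation odour diacetyl, had peaks in EEs (fold 6.58) and progenitor cells (fold 4.02), shared with the metallothionein gene MtnB. Their summits lay 1015 and 977 bp upstream of the Or92a start site. Or45a, a larval odorant receptor, was the only Or gene with an own peak in progenitor cells, at fold 5.97 (percentile 61.2). The peak covered its start site and was also present in ECs at fold 2.38 (percentile 38.6), while the nearest EE peak lay 5766 bp away. Of the 7 Or genes with a peak in EEs, 2 had an own peak there, against 4 of 8 Gr and 3 of 6 Ir genes.

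The own peaks of EEs and ECs differed in where they lay. The EEs had 8 own peaks at 9 members, with a median fold of 2.86, and 4 of the 8 covered a start site. The ECs had 14 own peaks at 13 members, with a median fold of 2.13 and a range from 1.81 to 2.52, and 1 of the 14, that of Or45a, covered a start site. Of the EC own peaks, 12 had their summit in coding sequence (85.7%), against 2 of 8 in EEs (25%). Among all EC peaks within 1 kb of a start site the share in coding sequence was 21.3%, and among the 1998 of them with a fold no higher than the strongest own peak it was 46.3%. The corresponding shares in EEs were 7.14% and 10.1%. Unlike the own peaks, these comparison sets were not selected to lie away from start sites outside the families. Of the shared peaks at members, 15.4% in ECs and 0% in EEs had their summit in coding sequence. The median gene length was 1.69 kb for members and 2.17 kb for all genes. The part of this selection and of gene length in the shares was not tested. None of the 14 EC own peaks reached a -log10 q of 10, and 2 of the 8 EE own peaks did. The 14 members with a peak in ECs alone had a median fold of 2.11, beside 2.14 for all 628 genes with a peak in ECs alone. The 10 members with a peak in EEs alone had a median of 3.11, beside 3.55 for all 605 such genes. With no replicate library, the difference in position between ECs and EEs was not tested.

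**Figure D2:**
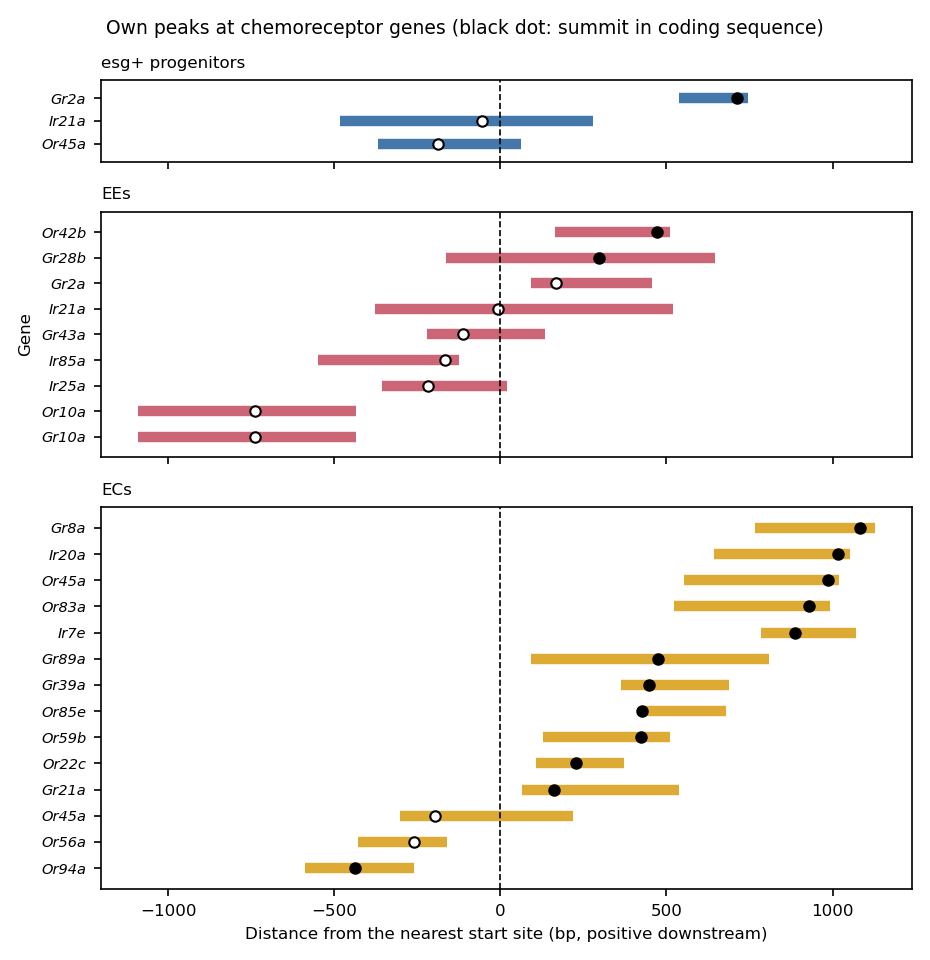
Own peaks of members in the 3 normal cell types, as bars from one edge of the peak to the other along the distance from the nearest start site in bp, positive downstream in the direction of transcription. Dots mark summits, black where the summit lies in coding sequence of any gene. In ECs 11 of the 14 summits lie downstream of the start site and 12 are black, while in EEs 4 of the 8 peaks reach across the start site; Or10a and Gr10a share 1 peak.

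The other EC members were mostly odorant receptors. Own peaks were found at Or56a, the receptor for geosmin, at Or59b, Or22c, Or83a, Or85e and Or94a, at Gr8a, a receptor for the plant toxin canavanine, and at Ir7e and Ir20a. Their folds lay between 1.81 (Gr8a) and 2.52 (Or59b), and the summit of the Or94a peak lay in a coding exon of the neighbouring gene Nha2. Or23a had a peak of fold 2.08 in its coding exon, which came within 1 kb of the start site of the proteasome subunit gene Prosbeta4R2. Or genes made up 12 of the 25 members with a peak in ECs, or 20.3% of the 59 Or genes (12.0 to 32.3). The shares were 13.3% of Gr genes (6.91 to 24.2) and 8.33% of Ir genes (3.61 to 18.1), so the intervals of the families overlapped. In EEs the shares were 13.3% of Gr, 11.9% of Or and 10% of Ir genes.

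**Figure D3:**
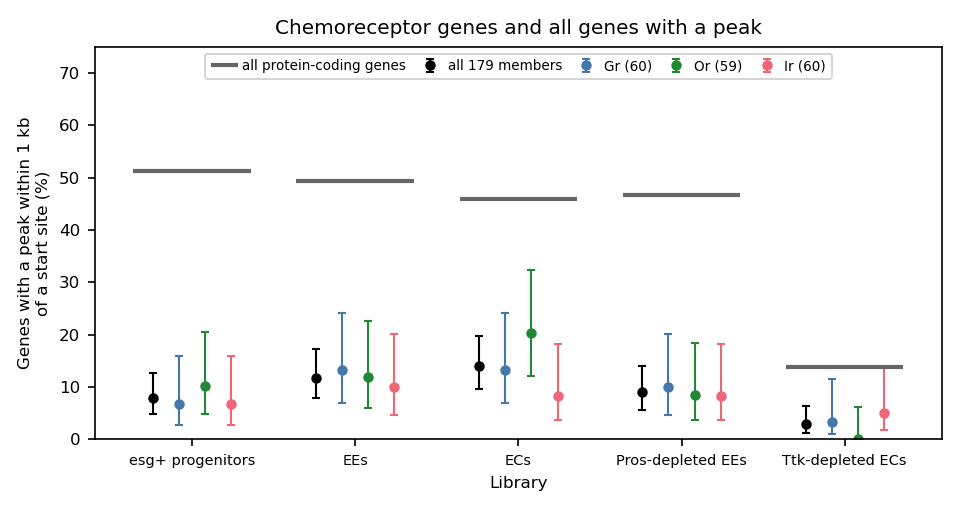
Share of genes with a peak within 1 kb of a start site in each library, in percent, for all 179 members and for the Gr, Or and Ir genes, with 95% Wilson intervals that cover counting error only. Grey lines give the share of all protein-coding genes. In EEs the members stand at 11.7% and all genes at 49.4%, and the intervals of the 3 families overlap in every library.

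The strongest peaks at members were shared with their neighbours. By fold enrichment, the 5 leading members were Or71a, Ir60e, Gr32a, Or9a and Ir60b in progenitor cells (folds of 13.4 to 8.64), Gr39b, Or88a, Ir60e, Or9a and Or92a in EEs (8.06 to 6.58) and Or71a, Or9a, Gr97a, Gr32a and Ir60e in ECs (5.69 to 3.90). The neighbours were Plp, a centrosome protein gene, at Or71a, CG13585 at Ir60e, Neb-cGP at Or9a, the mitochondrial gene Letm1 at Ir60b, CG12402 at Or88a and CG5521 at Gr97a. The 8 members with a peak in all 3 normal cell types were Gr32a, Gr97a, Ir48c, Ir60b, Ir60e, Or67b, Or88a and Or9a, and all 8 had shared peaks only. At Ir48c the peak lay in an intron of ths, an FGF ligand gene, and at Or67b in the 5′ UTR of Cyp40. Gr94a, with a peak in progenitor cells (fold 2.82), ECs (3.08) and Pros-depleted EEs (4.0), shared it with p53. The median fold of shared peaks was 6.03 in EEs, 3.12 in ECs and 6.77 in progenitor cells. The summit of 11 of 12, 12 of 13 and 11 of 11 of these peaks, respectively, lay upstream of the member.

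Peaks were more frequent at members close to a gene outside the families. Of the 45 members with a start site of a gene outside the families within 2 kb, 18 had a peak in a normal cell type (40.0%, 27.0 to 54.5). Of the 134 without one, 20 did (14.9%, 9.87 to 21.9). Genes at large showed the same direction, with 68.7% where another start site lay within 2 kb and 49.2% where none did. In these 134, EEs had a peak at 9, ECs at 11 and progenitor cells at 3. For the 98 members with no start site of any other gene within 2 kb, the share with a peak in a normal cell type was 17.3% (11.1 to 26.0), beside that 49.2% of the 5471 protein-coding genes in the same position. Tandem clusters held few peaks. Of 79 members whose gene bodies lay within 5 kb of each other, in 28 clusters, 10 had a peak in a normal cell type (12.7%, 7.02 to 21.8). Of the 100 members on their own, 28 had one (28.0%, 20.1 to 37.5), and the share of all genes was 61.1%. In clusters of at least 3 members, 4 of 53 had a peak in a normal cell type (7.55%, 2.97 to 17.9), namely Gr10a, Or10a, Gr64a and Ir7e. Of the clusters with 5 members, that of Gr22a to Gr22e had none.

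Peaks were also further away from members than from genes at large. The median distance from a start site to the edge of the nearest peak was 6.76 kb in EEs, beside 1.09 kb for all protein-coding genes. It was 7.62 kb beside 0.817 kb in progenitor cells, and 5.44 kb beside 1.45 kb in ECs. In EEs the Gr genes had the lowest median of the families, at 4.26 kb, against 8.77 kb for Or and 9.52 kb for Ir genes, whereas in ECs the medians of the families lay between 5.18 and 5.90 kb. Within 3 kb of an EE peak were 23 of 60 Gr genes (38.3%), 11 of 59 Or genes (18.6%) and 12 of 60 Ir genes (20%), beside 63.4% of all genes. In progenitor cells the Gr genes also had the lowest median, at 6.55 kb against 8.74 kb for Or and 8.31 kb for Ir genes, and 26.7%, 22.0% and 16.7% of the families lay within 3 kb of a peak. Members of a tandem cluster can have the same nearest peak, as Gr64b and Gr64c did, so these distances are not independent, and the difference between families was not tested. A peak covered a start site at 5 members in EEs (Gr28b, Gr43a, Ir21a, Ir25a and Or49b), at 3 in progenitor cells and at 1 in ECs, beside 38.4%, 42.0% and 29.2% of all genes. Just inside the 1 kb window in EEs were Or9a at 938 bp and Gr39b at 923 bp, and just outside it Or2a at 1055 bp and Gr59a at 1265 bp.

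**Figure D4:**
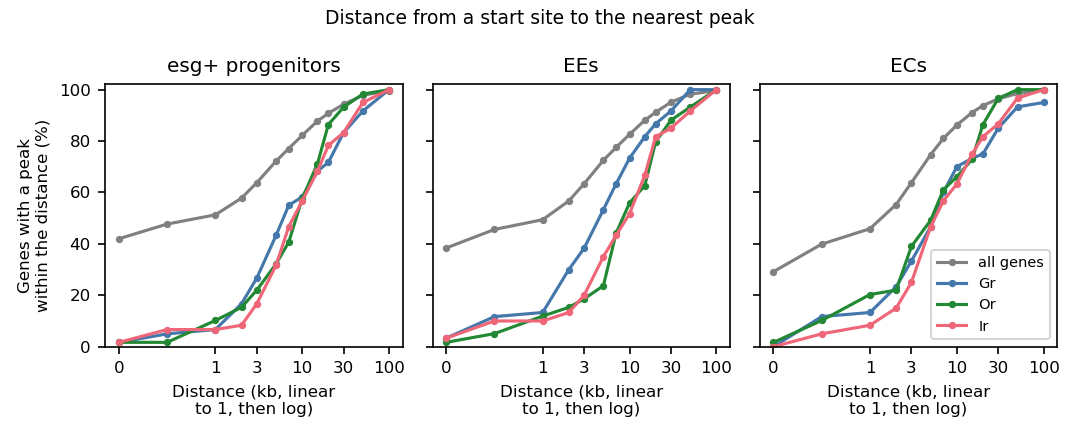
Percent of genes with the edge of a peak within a given distance of a start site, in kb (linear to 1 kb, then logarithmic), for all protein-coding genes and for the Gr, Or and Ir genes in the 3 normal cell types. All 3 families run below all genes at short distances, and in EEs the Gr genes reach 38.3% at 3 kb, above 18.6% for Or and 20% for Ir genes.

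After depletion of Pros, peaks of members divided by kind. Of the 21 members with a peak in EEs, 15 had one in Pros-depleted EEs, beside 88.1% of all genes with an EE peak. All 12 members whose EE peak was shared with a neighbour had one, against 3 of the 9 members with an own peak, namely Ir21a, Ir25a and Gr2a. The shared EE peaks were also the stronger ones, at a median percentile of 81.4 against 26.8 for own peaks, and the part of strength in this difference was not tested beyond the next comparison. Among all 3576 protein-coding genes whose strongest EE peak had a fold in the range of these own peaks, 1.97 to 4.58, 80.9% had a peak in Pros-depleted EEs. However, 7 of the 9 members with an own peak had it in EEs alone of the normal cell types. For all genes with a peak in EEs alone the share with a peak in Pros-depleted EEs was 46.8%. The 6 members with no peak in Pros-depleted EEs were Gr10a, Or10a, Gr28b, Gr43a, Or42b and Ir85a, of which Gr10a and Or10a have the same EE peak. Their EE folds lay between 1.97 and 3.30. Their nearest peak in Pros-depleted EEs lay at 19399 bp for Gr28b, 2617 bp for Gr43a and 6052 bp for Gr10a and Or10a. Of the 10 members with a peak in EEs alone, Gr39b, Gr64a, Ir25a and Or49b had one, beside 46.8% of all genes with a peak in EEs alone. The folds of these 4 were 7.53, 4.73, 3.19 and 3.06 in Pros-depleted EEs. Gr94a had a peak in Pros-depleted EEs without one in EEs, the one shared with p53. Folds depend on the depth of each library, which is unknown, so a missing peak is one not called in that library.

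In Ttk-depleted ECs, 3 of the 25 members with an EC peak had a peak (Gr21a, Gr32a and Ir48c), beside 27.6% of all genes with an EC peak. The peaks of Gr32a and Ir48c overlapped the EC peaks of these genes. That of Gr21a, at a -log10 q of 2.14 with its summit 198 bp upstream of a start site, overlapped no EC peak. Of the 10 members with a peak in EEs alone, 0 had a peak in Ttk-depleted ECs, beside 6.28% of all such genes. Ir68a, a receptor of moist air, and Ir10a had a peak in this library alone, at folds of 4.22 and 4.92 and -log10 q of 2.43 and 3.38. This list held 3269 peaks with a median width of 129 bp, against 8466 to 10048 peaks with medians of 476 to 591 bp in the others, and no test of the absence of a peak was made.

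Genes that work with the receptors, and markers of cells that could carry them, were read in the same way. The shares of all genes against which these counts stand are 49.4% in EEs, 51.3% in progenitor cells, 45.9% in ECs and 46.6% in Pros-depleted EEs. Of 14 signalling partners, 7 had a peak in EEs, near the share of all genes, 6 in progenitor cells and 6 in ECs. TrpA1, a channel of noxious heat and chemical sensing, had one in EEs alone, whereas Orco, the co-receptor of all Or proteins, had none in any library. Of 51 odorant-binding protein genes, 3 had a peak in EEs, 2 in progenitor cells and 5 in ECs. Of 12 gut peptide hormone genes, 9 had a peak in EEs, among them AstC, Mip, NPF and Dh31, against 3 in progenitor cells, 1 in ECs and 5 in Pros-depleted EEs. Of the EE markers, AstC had a peak in EEs alone of the normal cell types, Rab3 in EEs and progenitor cells, pros in all 3, and Tk in none. Of 5 progenitor markers, esg, Dl, fkh and klu had peaks in both progenitor cells and EEs, and esg, fkh and klu in ECs as well. The remaining progenitor marker had none in any library. Peaks at the EC markers nub and mex1 were found in progenitor cells, EEs and ECs alike. The EC marker Myo31DF had one in progenitor cells and EEs without one in ECs. These lists therefore do not separate the cell types by presence alone. All 4 neuron markers (elav, nSyb, brp and Syt1) had a peak in EEs, against 2 in progenitor cells and 2 in ECs. EEs share neuronal secretory genes with neurons, and the part of any neurons of the gut in the EE peaks of chemoreceptor genes was not tested. Of visceral muscle markers 1 of 4 had a peak in EEs and of haemocyte markers 2 of 3.

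In the 300-base promoters of all protein-coding genes, from 250 bases before to 50 after the first start site, GATAAG was found in 18.9%, CAGCTG in 17.7% and CAGGTG in 9.32%. The shares for the 179 members were 17.9%, 9.5% and 14%. Among the 9 members with an own peak in EEs, Gr28b, Gr43a and Ir25a held GATAAG, Ir21a held CAGCTG, and Gr2a and Ir21a held CAGGTG. Among the 13 with an own peak in ECs, 4 held GATAAG, 1 CAGCTG and 3 CAGGTG. A match says only that these letters are present.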

How the data were processed

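Chromatin of 5 sorted midgut populations was profiled by ATAC-seq. Per the labels and the paper, the authors trimmed reads (cutadapt), aligned them to BDGP6 (Bowtie2), removed duplicates and multimapped reads and called peaks separately in each sample (MACS3). The deposited lists give, for each peak, its interval and summit, the fold enrichment over background, the -log10 p and -log10 q, and an integer score made by the authors' caller from the -log10 q, which was not used. The depth of the libraries is not given in the sources used here.

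Peaks on 6 chromosome arms were kept (3269 to 10048 per library). Start sites were those of the BDGP6 annotation in Ensembl release 115; of 30593 annotated start codons, 99.8% read ATG in the RefSeq sequence of the same build, from which the printed bases were taken. A peak counted when it overlapped the window of 1 kb to each side of a start site by at least 1 bp. Fold enrichments were ranked within each list. Shares have 95% Wilson intervals. The overlap step was tested on simulated data. Python 3.11.15, numpy 2.4.6, pandas 2.3.3 and matplotlib 3.10.9 were used.

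The genes named are all members with a peak in EEs alone, all with an own peak in a normal cell type, the 5 strongest of each normal cell type and members of the role lists; Gr94a, Ir10a, Ir48c, Or23a, Or67b, Or2a, Gr59a, Or19a, Or19b and the Gr22 cluster were chosen after their values were seen. The members and lists were chosen with earlier results of these data known. The alternatives were windows of 500 bp and 3 kb, the summit in the window, a -log10 q of at least 10, equal numbers of peaks, and leaving out shared peaks.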

Additional observations from a re-analysis of the deposited data

How the results depend on the processing

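The 11 counts of members with a peak in each library, in each normal cell type alone and by family in EEs were recomputed under 6 alternatives, and a 7th was added after the data were seen. Other counts were not recomputed. Counts moved by over 1.5 times in the following cases. With windows of 500 bp, the members with a peak numbered 8 in progenitor cells, 16 in ECs and 3 in Ttk-depleted ECs, the Or genes with a peak in EEs 3, and the members with a peak in ECs alone 9, while 10 had one in EEs alone. These 10 held Gr2a in place of Gr39b. Among all genes the shares with this window were 47.7% in progenitor cells, 45.6% in EEs, 39.9% in ECs and 11.3% in Ttk-depleted ECs. With windows of 3 kb, the counts were 46 in EEs (23 Gr, 11 Or and 12 Ir), 58 in ECs, 39 in progenitor cells, 11 in Ttk-depleted ECs and 38 in Pros-depleted EEs, with 24 in ECs alone. The shares of all genes rose to 63.4% in EEs, 63.8% in ECs, 63.8% in progenitor cells, 20.4% in Ttk-depleted ECs and 60.6% in Pros-depleted EEs. The count in EEs alone stayed at 10, but of the genes with windows of 1 kb only Gr28b, Gr39b and Ir85a remained. With the summit in the window, 1 member had a peak in progenitor cells alone. With a -log10 q of at least 10, there were 8 members in ECs and 0 in Ttk-depleted ECs, 4 Gr genes in EEs, and 1, 4 and 1 members in progenitor cells, EEs and ECs alone. The 1 in progenitor cells alone (Or45a) and the 1 in ECs alone (Gr94a) had peaks in both of these cell types without the threshold. At this threshold the shares of all genes were 37.8% in EEs, 26.1% in ECs and 0.645% in Ttk-depleted ECs. With the strongest 3269 peaks of each list, there were 6 members in progenitor cells, 10 in EEs (4 Gr, 3 Or and 3 Ir), 5 in ECs and 8 in Pros-depleted EEs, with 4 in EEs alone and 0 in ECs alone. Of these 4, Gr39b and Gr64a had a peak in EEs alone under the main setting too, while Ir48c and Or92a did not. With these shortened lists the shares of all genes were 22.4% in progenitor cells, 22.3% in EEs, 18.9% in ECs and 22.4% in Pros-depleted EEs. Without shared peaks, there were 9 in EEs (4 Gr, 2 Or and 3 Ir), 13 in ECs, 3 in progenitor cells and 3 in each of the depleted populations. With the strongest 8466 peaks of each of the 4 longer lists, 9 members had a peak in ECs alone. The excess of ECs over EEs in members (25 against 21) thus turned to 8 against 14 at a -log10 q of at least 10, and to 5 against 10 with equal numbers of peaks, and the cause was not tested. Among all genes the share was higher in EEs than in ECs under the main setting already (49.4% against 45.9%), and under both of these alternatives. No paired analysis was possible because each population has 1 library.

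The share of members with a peak stayed below that of all genes in every library under the 6 alternatives that apply to both. Reads with several matches were removed by the authors, and 50-base words repeated in the genome made up 64.3% of the windows of Or19a and Or19b, which had no peak, and under 14% at any other member; 170 of 179 members had none. A peak list does not hold signal below the threshold, so accessibility under it could not be seen.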
